A study of Homo sapiens with 2 samples.

Results

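Ewing sarcoma surface antigens were examined as a set of 10 genes: CD99, CD99L2, CAV1, IL1RAP, LINGO1, ADGRG2, ROR1 and KIT, which encode membrane proteins, and B4GALNT1 and ST8SIA1, which encode enzymes of ganglioside synthesis. They are targets or markers discussed for this tumor, were chosen with earlier results of these data known, and are 10 of the 33538 genes in the count tables. The study profiled Ewing sarcoma cell lines by droplet single-cell RNA sequencing with a 10x 3' kit, and the established lines CHLA9 and TC71 were used here, with 1 library of each. The medium of CHLA9 was IMDM, with 20% fetal bovine serum and an insulin, transferrin and selenite supplement, and that of TC71 was RPMI, with 10% serum. CHLA9 was sequenced on the NovaSeq in addition to the HiSeq, so line, medium and sequencing cannot be told apart in any difference below. Both lines were detached with trypsin before capture, and RNA, not surface protein, was measured.

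A cell was kept if it had at least 5000 unique molecular identifiers (UMIs) and 2000 genes, and if no more than 15% of its UMIs were mitochondrial. This left 4524 CHLA9 cells with 174975302 UMIs and a median of 34656 UMIs per cell, and 1729 TC71 cells with 58355173 UMIs and a median of 33370. These were 89.1% of the 5077 CHLA9 barcodes and 20.4% of the 8468 of TC71, where 870 barcodes with at least 5000 UMIs failed another limit, against 276 of CHLA9. Mitochondrial UMIs made up 7.59% of the median CHLA9 cell that was kept and 9.05% of that of TC71. These values run with line in each difference below. The libraries shared 16 barcodes in all and 3 among the kept cells. Levels are UMIs summed over cells per 1000000 of the line (CPM) with exact 95% Poisson intervals. The 3' kit counts each captured molecule once, so levels of different genes were set side by side without division by length. No test was possible between single libraries, and all intervals cover counting error only.

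Ewing sarcoma is driven by a fusion of EWSR1 with an ETS factor, most often FLI1, and the fusion protein binds GGAA motifs and GGAA repeats. CD99 is a glycosylated membrane protein whose strong staining is used in the diagnosis of this tumor. The disialoganglioside GD2 is a glycolipid, not a gene product, so its presence can be followed in RNA only through the enzymes that make it. ST8SIA1, the GD3 synthase, adds the sialic acid that turns GM3 into GD3, and B4GALNT1, the GM2/GD2 synthase, turns GD3 into GD2.

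The Ewing sarcoma label was checked on 10 markers, and all 10 passed a mean of 1 CPM over the lines. CCND1, a cyclin of G1, was the most abundant of them, with 2510 CPM in CHLA9 and 1451 in TC71. The fusion targets NKX2-2 and NR0B1 were at 9.89 and 48.1 CPM in CHLA9 and at 34.6 and 122 in TC71, and BCL11B was at 217 and 75.9. Markers of other cell types were low with few exceptions. The 10 blood markers summed to 11.0 CPM in CHLA9 and 10.4 in TC71, mostly CD79A at 10.1 in each line, with PTPRC at 0.0514 and 0.0857 and CD3E, CD3D, MS4A1 and HBB at 0. The 5 endothelial markers summed to 1.03 and 8.59 CPM, led by CLDN5 at 0.806 and 8.52, with VWF and TEK at 0. The 5 epithelial markers summed to 0.543 and 1.44 CPM, led by ELF3 at 0.400 in CHLA9 and by EPCAM at 1.25 in TC71, with KRT5 at 0. The 5 fibroblast markers differed between the lines, with 278 CPM in CHLA9 and 14.4 in TC71. Collagen gene COL1A2 led them in CHLA9 at 203 CPM against 0.0343 in TC71, COL1A1 led in TC71 at 10.2 against 56.0 in CHLA9, DCN was at 13.6 and 2.86, and PDGFRA was at 0.0514 and 0.0343. The part of these genes in the differences of the antigens was not tested.

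All 10 antigen genes passed the filter of 1 CPM, and 7 of them were at least 2-fold apart between the lines, against 31.2% of the 12932 genes that passed it. CD99, CD99L2, ROR1 and KIT were higher in CHLA9, where 18.9% of all genes were called. CAV1, ADGRG2 and ST8SIA1 were higher in TC71, where 12.3% of all genes were called. IL1RAP, LINGO1 and B4GALNT1 were under 2-fold apart. ST8SIA1 passed only through TC71, which fixed its call. The shares of all genes given here are the background of each list count below. The median log2 ratio of CHLA9 over TC71 was -0.18 over the 10 genes and 0.21 over all genes that passed. Relative to that shift of 0.21, the same 7 genes were past 2-fold in the same directions, and the smallest of the 7 was ROR1 at 2.05-fold. The background changed sides under that scaling, with 1846 of 13058 genes called higher in CHLA9 and 2071 in TC71, in place of 2442 and 1593 of 12932.

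**Figure D1:**
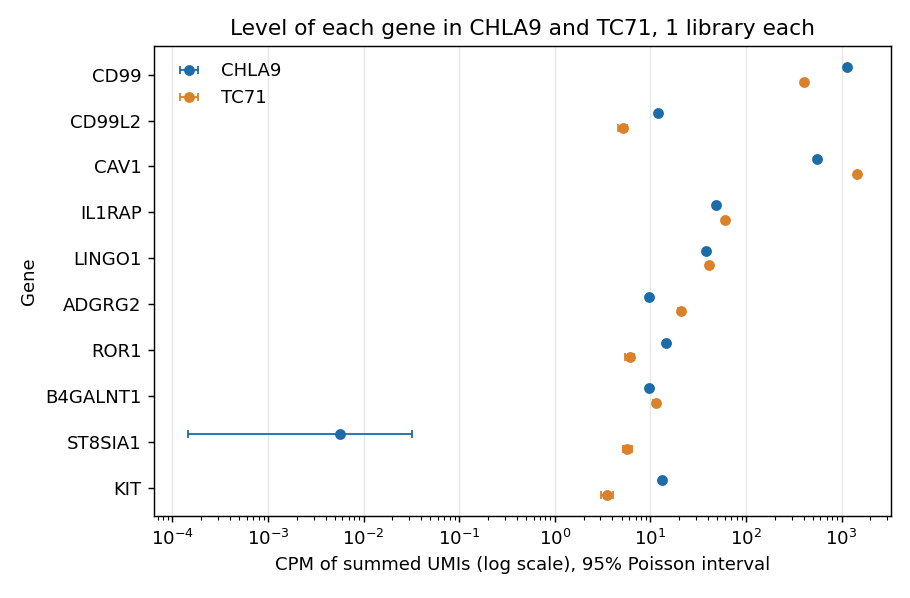
Level of each of the 10 genes in CHLA9 (blue) and TC71 (orange), as CPM of summed UMIs on a log axis, with 95% Poisson intervals that cover counting error only. CD99 and CAV1 trade places at the top, from 1141 and 558 CPM in CHLA9 to 401.5 and 1443 in TC71, and ST8SIA1 rests on 1 UMI in CHLA9.

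CD99 was the most abundant antigen gene of CHLA9, with 1141 CPM (1136 to 1146), and it was at 401.5 CPM (396 to 407) in TC71. Its level was 2.84-fold higher in CHLA9 by counting (2.80 to 2.88) and 2.46-fold higher relative to the shift of all genes. The gene lies at chrX:2691187-2741309 (GRCh38), in the pseudoautosomal region. Its pseudogene copy CD99P1 is not among the genes counted here, and whether molecules of that copy were counted as CD99 was not tested. After each cell was thinned to 10000 UMIs, the median cell held 11 CD99 UMIs in CHLA9 (5 to 20 from the 5th to the 95th percentile) and 4 in TC71 (1 to 9). The ranges between quartiles did not overlap, with quartiles of 8 and 15 UMIs in CHLA9 and of 2 and 5 in TC71.

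CD99L2, a related protein that takes part in leukocyte passage through vessel walls, was far lower than CD99 on the same scale. It was at 12.1 CPM (11.6 to 12.7) in CHLA9 and 5.12 CPM (4.56 to 5.74) in TC71, a 2.37-fold difference (2.10 to 2.68). Of 6 genes listed as the CD99 family and its ligands, 4 passed the filter, and CD99 and CD99L2 were the 2 past 2-fold. XG, the blood group gene next to CD99, was at 30.2 CPM in CHLA9 and 16.9 in TC71, which is 1.79-fold.

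CAV1 encodes caveolin-1, the scaffold of caveolae, which sits in the inner face of the membrane with both ends in the cytoplasm. It was at 558 CPM (555 to 562) in CHLA9 and was the most abundant antigen gene of TC71, with 1443 CPM (1433 to 1452). The level was 2.58-fold higher in TC71 (2.56 to 2.61) and 2.98-fold higher relative to the shift. CAV2, which encodes the partner caveolin and lies 16453 bases before CAV1 on chromosome 7, was at 62.6 CPM in CHLA9 and 295 in TC71, or 4.72-fold higher. The median thinned cell held 5 CAV1 UMIs in CHLA9 (0 to 14 from the 5th to the 95th percentile) and 14 in TC71 (6 to 27).

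The upstream windows of these neighbours are shown because both genes moved the same way between the lines and varied together from cell to cell. Each is the 100 bases before the first RefSeq start listed on the plus strand of GRCh38.p14, CAV1 at chr7:116524909-116525008 and CAV2 at chr7:116499638-116499737. The last 15 bases of the CAV1 window fall in a GENCODE 44 exon of the gene, and the CAV2 window holds no exon of either gene. Capitals mark GGAA, or TTCC where GGAA is on the complementary strand.
CAV1: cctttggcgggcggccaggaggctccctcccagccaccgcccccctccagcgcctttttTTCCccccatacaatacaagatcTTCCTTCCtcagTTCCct
CAV2: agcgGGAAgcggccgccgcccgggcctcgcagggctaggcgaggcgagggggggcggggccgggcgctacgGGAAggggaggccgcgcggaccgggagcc
The tandem repeat GGAAGGAA occurred 1 time before CAV1, 10 bases from the start shown, and 0 times in the 250 bases before CAV2. GGAA alone occurred 4 times before CAV1 and 3 times before CAV2 in 250 bases, overlaps with the repeat counted, but 92.7% of 35116 RefSeq windows of this length hold it on either strand. The tandem repeat is in 3.06% of them. The set of RefSeq windows used here matched 9 of the 10 antigen genes and held none under the name B4GALNT1. Of the 19 windows of these 9 genes, the 2 with the repeat were overlapping windows of CAV1. The remaining window of CAV1, at chr7:116526112-116526361, held 0 GGAA. The ETS motif CCGGAAGT, which contains GGAA and is in 3.42% of all windows, was in 0 of the 19. These are matches of letters, and no binding was measured.

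Of 8 genes listed for caveolae, 5 passed the filter, with 2 past 2-fold in each direction, so the list did not move as a whole. CAV1 and CAV2 were higher in TC71. PACSIN2, which shapes the neck of caveolae, was at 48.9 CPM in CHLA9 and 18.9 in TC71, and EHD2, an ATPase at the same neck, was at 5.11 and 1.37. The coat protein CAVIN1 was at 4.42 and 6.86 CPM, low beside CAV1 in both lines. CAVIN2 was at 0.869 CPM in CHLA9 and at 0 in TC71.

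In single cells the order of CD99 and CAV1 followed the sums. More CD99 than CAV1 UMIs were held by 84.3% of thinned CHLA9 cells (95% Clopper-Pearson interval 83.2 to 85.4) and by 2.22% of thinned TC71 cells (1.57 to 3.04). The reverse order was found in 12.2% of CHLA9 cells (11.3 to 13.2) and 96.4% of TC71 cells (95.4 to 97.3). So the lines were opposite in which antigen gene led, although cells of either order were present in both. CAV1 was also more unevenly spread than CD99 in CHLA9. The variance of its UMIs over their mean was 3.31 there, against a median of 1.22 for the 95 genes within 1.25-fold of its mean, and for CD99 the value was 1.95 against 1.33 over 47 genes.

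Of 4510 thinned CHLA9 cells, 230 (5.10%) held no CAV1 UMI, where an even spread at the same mean would leave 99.6% of cells with a UMI. At full depth, 24 of the 230 still held none. These cells had a median of 34117 UMIs before thinning against 34758.5 in the others, and the same median of 11 CD99 UMIs. Of them, 47.8% were placed in S and 28.7% in G2M, against 38.1% and 39.6% of the cells with CAV1. In TC71, 58 of 1670 thinned cells (3.47%) held no CD99 UMI, and 1 of the 58 held none at full depth. Their median CAV1 count was 12.5 UMIs against 14 in the others.

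IL1RAP encodes the accessory chain that the receptors for IL-1, IL-33 and IL-36 share, and the protein has been described with the cystine transporter of SLC7A11 and SLC3A2 in Ewing sarcoma. It was at 48.6 CPM (47.5 to 49.6) in CHLA9 and 61.0 CPM (59.0 to 63.0) in TC71, a 1.26-fold difference (1.21 to 1.31) that was under the fold used for calls but outside counting error. The receptor chains it pairs with were missing from the counts: IL1R1, IL1RL2 and the decoy IL1R2 had 0 UMIs in both lines, and IL1RL1 had 0 in CHLA9 and 2 in TC71. With 3 counts taken as the limit, a count of 0 allows up to 0.0171 CPM in CHLA9 and 0.0514 CPM in TC71. Of 18 genes listed for the IL-1 receptor family and its partners, 8 passed the filter and 6 were at 0 in both lines. The heavy chain gene SLC3A2 was at 578 CPM in CHLA9 and 80.2 in TC71, or 7.21-fold higher in CHLA9. The transporter gene SLC7A11 went the other way, with 9.97 CPM in CHLA9 and 21.7 in TC71, or 2.18-fold.

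LINGO1, a leucine-rich repeat protein known from neurons as a part of the Nogo receptor complex, was the antigen gene with the closest levels in the lines. It was at 38.3 CPM (37.4 to 39.2) in CHLA9 and 40.8 CPM (39.2 to 42.5) in TC71, 1.07-fold apart (1.02 to 1.12) by library totals. The other parts of that complex were not alike. NGFR, the low-affinity neurotrophin receptor, was at 100.3 CPM in CHLA9 and 4.97 in TC71, or 20.2-fold higher in CHLA9. RTN4R, the Nogo receptor itself, was at 32.3 and 4.97 CPM, or 6.49-fold higher. RTN4, which encodes the ligand Nogo, was the most abundant of the 10 genes listed, with 232 and 254 CPM. NGFR and RTN4R were the 2 of 5 genes passing the filter that were past 2-fold. TNFRSF19, a coreceptor that did not pass it, went the other way, with 3 UMIs in CHLA9 and 52 in TC71. LINGO2 was at 8.82 and 5.33 CPM, and LINGO4 and MAG were at 0.

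ADGRG2, an adhesion receptor coupled to G proteins, was at 9.72 CPM (9.27 to 10.2) in CHLA9 and 20.8 CPM (19.6 to 22.0) in TC71. The difference of 2.14-fold had a counting interval of 1.99 to 2.30, which reaches below the fold used for calls. Among the 7 receptors of its group, ADGRG6 also passed the filter, through TC71 alone, with 0.0343 CPM in CHLA9 (6 UMIs) and 3.46 in TC71. ADGRG1 and ADGRG4 were at 0 in both lines.

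ROR1, a receptor for WNT5A with little or no kinase activity of its own, was at 14.4 CPM (13.9 to 14.99) in CHLA9 and 6.10 CPM (5.48 to 6.77) in TC71, a 2.36-fold difference (2.11 to 2.65). Of 12 genes listed for noncanonical WNT signaling, ROR1 among them, 10 passed the filter, 5 were past 2-fold higher in CHLA9 and 1 in TC71. Besides ROR1, the 5 were the ligand gene WNT5A at 37.1 CPM in CHLA9 and 12.1 in TC71, the receptor FZD2 at 38.6 and 6.77, the coreceptor PTK7 at 42.5 and 18.1, and the planar polarity gene VANGL2 at 13.1 and 2.85. The receptor FZD6 was the 1 gene in the other direction, at 4.44 CPM in CHLA9 and 17.9 in TC71, and relative to the shift of all genes VANGL1 joined it. RYK, another WNT receptor, was at 37.4 CPM in both lines, and ROR2 was at 0.554 and 0.171.

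KIT, the receptor tyrosine kinase for stem cell factor, was at 13.1 CPM (12.6 to 13.6) in CHLA9 and 3.51 CPM (3.05 to 4.03) in TC71, or 3.73-fold higher in CHLA9 (3.23 to 4.32). The gene of its ligand, KITLG, was at 0.0629 CPM in CHLA9 and 1.51 in TC71 and did not pass the filter. In the list of 12 class III receptor kinases and their ligands, 5 genes passed and all 5 were past 2-fold, against 31.2% of all genes that passed. FLT3, among the 5, passed only through TC71, which fixed its call. PDGFRB was at 23.2 CPM in CHLA9 and 3.62 in TC71, and the ligand PDGFC at 28.5 and 10.8. PDGFD, another ligand of the PDGF receptors, was higher in TC71, at 20.9 CPM against 6.96, as was FLT3, at 2.71 against 0.0171 (3 UMIs).

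The enzymes of GD2 synthesis differed in their pattern. ST8SIA1 had 335 UMIs in TC71, or 5.74 CPM (5.14 to 6.39), and 1 UMI in CHLA9, or 0.00572 CPM (0.000145 to 0.0318). The ratio was 1004, with a counting interval of 179 to 39790. B4GALNT1 was at 9.62 CPM (9.16 to 10.1) in CHLA9 and 11.5 CPM (10.7 to 12.4) in TC71, 1.20-fold apart (1.10 to 1.31). So RNA of the enzyme acting later in the path to GD2 was counted in both lines, and RNA of the earlier enzyme in TC71 but hardly in CHLA9. GD2 itself was not measured.

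Of 14 genes listed for ganglioside synthesis, 10 passed the filter, 2 were past 2-fold higher in CHLA9 and 3 in TC71. ST8SIA1 and ST6GALNAC3 passed only through TC71 and ST8SIA5 only through CHLA9, which fixed their calls. B4GALT5, which makes lactosylceramide, was the most abundant in both lines, with 70.7 CPM in CHLA9 and 44.9 in TC71. UGCG, which starts the pathway from ceramide, was at 23.8 and 22.5 CPM. ST3GAL5, which makes GM3, the substrate of ST8SIA1, was at 7.50 CPM in CHLA9 and 16.0 in TC71, or 2.14-fold higher in TC71. ST3GAL1, a sialyltransferase of later steps, was at 12.1 and 1.85 CPM, or 6.56-fold higher in CHLA9, and ST8SIA5 was at 1.62 and 0.617. ST6GALNAC3 had 2 UMIs in CHLA9 and 119 in TC71, at 0.0114 and 2.04 CPM.

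The order of the levels was partly set by counting error. In CHLA9 the order was CD99, CAV1, IL1RAP, LINGO1, ROR1, KIT, CD99L2, ADGRG2, B4GALNT1 and ST8SIA1, and the intervals of KIT and CD99L2 and those of ADGRG2 and B4GALNT1 overlapped. In TC71 it was CAV1, CD99, IL1RAP, LINGO1, ADGRG2, B4GALNT1, ROR1, ST8SIA1, CD99L2 and KIT, and the intervals of ROR1, ST8SIA1 and CD99L2 overlapped. IL1RAP and LINGO1 held the same places in both lines.

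**Figure D2:**
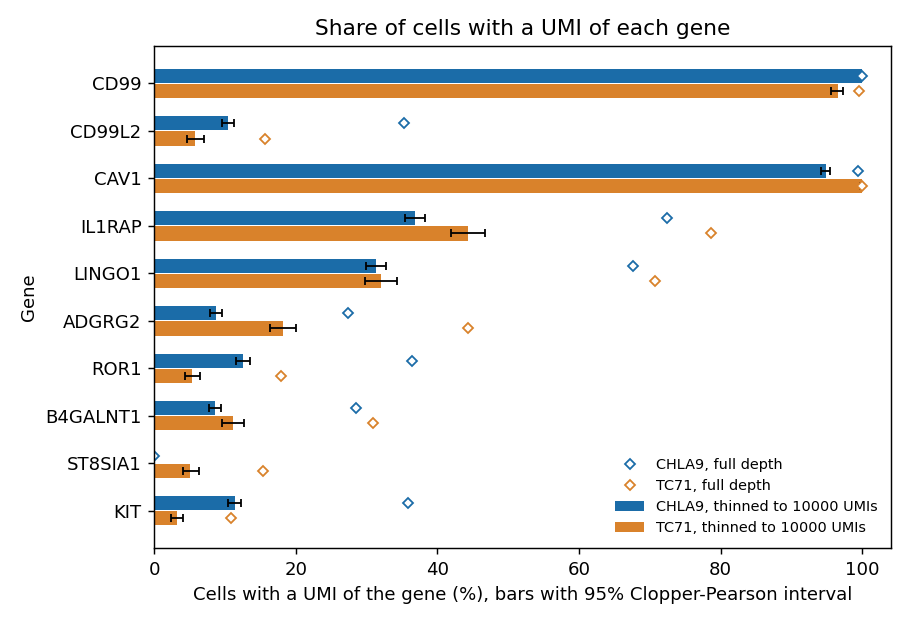
Share of cells with a UMI of each of the 10 genes in CHLA9 (blue) and TC71 (orange). Bars show cells thinned to 10000 UMIs with 95% Clopper-Pearson intervals. Open diamonds show the same cells at full depth plus those too shallow to thin. The gap between bar and diamond thus holds both depth and the added shallow cells, as for LINGO1 in CHLA9, 31.3% against 67.6%.

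The share of cells with a UMI was compared after thinning, which left out 14 CHLA9 and 59 TC71 cells below 10000 UMIs. CD99 was found in 4508 of 4510 thinned CHLA9 cells and in 96.5% of TC71 cells (95.5 to 97.4), and CAV1 in 94.9% of CHLA9 cells (94.2 to 95.5) and in 1669 of 1670 TC71 cells. IL1RAP was found in 36.9% of CHLA9 cells (35.5 to 38.3) and 44.4% of TC71 cells (42.0 to 46.8), and LINGO1 in 31.3% (30.0 to 32.7) and 32.0% (29.8 to 34.3). These 4 genes were the ones with a UMI in at least 20% of cells, and they were the same 4 in both lines. At full depth 9 genes in CHLA9 and 6 in TC71 reached that share, and at 5000 UMIs 3 in each line.

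The other 6 genes were each found in under 20% of thinned cells. ADGRG2 was found in 8.67% of CHLA9 cells (7.86 to 9.53) and 18.1% of TC71 cells (16.3 to 20.1), ROR1 in 12.5% (11.6 to 13.5) and 5.33% (4.30 to 6.52), and KIT in 11.4% (10.4 to 12.3) and 3.17% (2.39 to 4.13). CD99L2 was found in 10.4% (9.52 to 11.3) and 5.75% (4.68 to 6.98), and B4GALNT1 in 8.58% (7.78 to 9.44) and 11.1% (9.61 to 12.7). ST8SIA1 was found in 0 of 4510 CHLA9 cells, which by the same limit of 3 counts allows up to 0.0665% of cells with a UMI, and in 5.09% of TC71 cells (4.09 to 6.26).

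The low shares were near those of an even spread and rose with depth. At full depth the share with a UMI rose to 36.5% for ROR1, 35.8% for KIT and 35.3% for CD99L2 in CHLA9 and to 44.4% for ADGRG2 and 15.4% for ST8SIA1 in TC71. An even spread of the same UMIs over all thinned cells would have given 13.0%, 11.7% and 10.6% in CHLA9 for ROR1, KIT and CD99L2, and 18.5% and 5.25% in TC71 for ADGRG2 and ST8SIA1. IL1RAP in CHLA9 was less even, with 36.9% found and 40.0% under an even spread. Each library held 1 cell line and no cell type that should lack these genes, so a background share from free RNA could not be measured. The 1 CHLA9 cell of 4524 with an ST8SIA1 UMI at full depth bears on that gene alone.

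Most cells held RNA of several of the 10 genes, largely through CD99 and CAV1. Both of these were found in 94.9% of thinned CHLA9 cells and 96.5% of thinned TC71 cells. The median thinned cell had a UMI of 3 of the 10 genes in each line, with means of 3.15 in CHLA9 and 3.21 in TC71, and at full depth the median was 5 in each line. At least 4 genes were found in 32.4% of thinned CHLA9 cells (31.0 to 33.8) and 35.8% of TC71 cells (33.5 to 38.1). Cells with 1 gene made up 1.49% of CHLA9 and 0.838% of TC71. No thinned cell of either line was without a UMI of the set, and no thinned cell lacked both CD99 and CAV1.

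**Figure D3:**
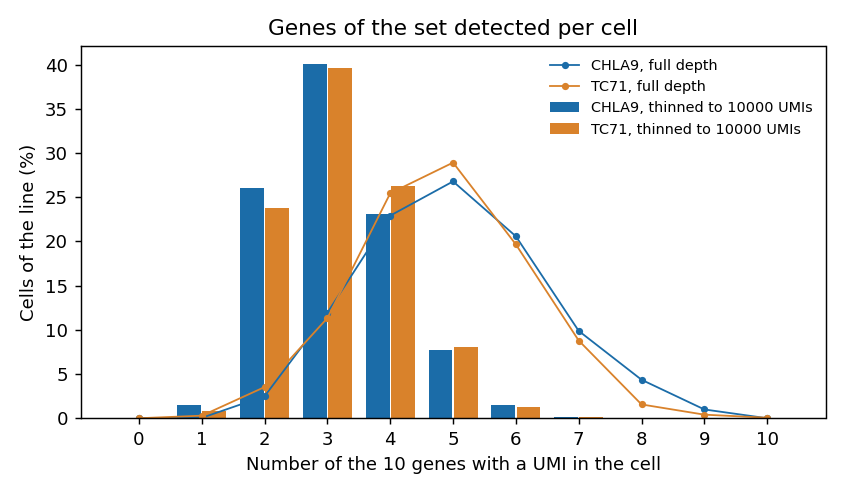
Share of cells (vertical axis, percent of the line) by the number of the 10 genes with a UMI in the cell (horizontal axis). Bars show cells thinned to 10000 UMIs and lines show full depth, in CHLA9 (blue) and TC71 (orange), and the peak moves from 3 genes after thinning to 5 at full depth in both lines.

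The cells with both genes of a pair were set against the product of the single shares. CD99 and CAV1 were in nearly all cells, which holds any ratio with them near 1, so after the data were seen their pairs were left out. Over the other 21 pairs with at least 20 cells expected in CHLA9, the median ratio was 1.02, with 14 above 1 and a range from 0.890 (LINGO1 and ADGRG2) to 1.37 (ADGRG2 and KIT). Over 13 such pairs in TC71, the median was 1.09, with 10 above 1 and a range from 0.902 (IL1RAP and B4GALNT1) to 1.27 (CD99L2 and LINGO1). The counting interval of each ratio was that of the share with both genes, divided by the product. The product was taken as known although it came from the same cells, so the interval is no test of independence. It held 1 for 19 of the 21 pairs in CHLA9 and for all 13 in TC71. With another draw of the thinning it held 1 for all 21 in CHLA9 and all 14 in TC71, with medians of 1.03 in both, but single ratios moved. LINGO1 and ADGRG2 in CHLA9 went to 1.06, and in TC71 IL1RAP and B4GALNT1 went to 1.01, CD99L2 and LINGO1 to 1.06 and LINGO1 and ST8SIA1 from 1.14 to 0.659 (0.409 to 1.004), so the range in TC71 became 0.659 to 1.155 and the order of the pairs depended on the draw.

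CD99 and CAV1 UMIs were found together in 94.9% of CHLA9 cells (94.2 to 95.5) and 96.5% of TC71 cells (95.5 to 97.3). IL1RAP and LINGO1 were found together in 11.7% (10.8 to 12.7) and 13.9% (12.3 to 15.6), with ratios of 1.01 and 0.977, and at least 1 of them in 56.5% of CHLA9 and 62.5% of TC71 cells. ROR1 and KIT, both receptor kinases by family, had a ratio of 0.951 in CHLA9 (0.729 to 1.22), and 1.20 (0.958 to 1.48) with the other draw.

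The pairs outside the interval in CHLA9 both held KIT. ADGRG2 and KIT were found together in 61 cells, 1.37 times the product (1.05 to 1.76), and CD99L2 and KIT in 70 cells, 1.32 times (1.03 to 1.66). With the other draw the ratios were 1.26 (0.972 to 1.61) and 1.00 (0.773 to 1.28), so both calls depended on the draw. B4GALNT1 and ST8SIA1, the enzymes of the GD2 path, were under the minimum of 20 cells, with 9.42 cells expected in thinned TC71 cells and 6 found, 0.637 times the product (0.234 to 1.38). With the other draw it was 12 cells and 1.08 times. Without thinning, where cells differed in depth, all 21 CHLA9 pairs and all 28 TC71 pairs with enough cells expected had ratios above 1, that of the GD2 enzymes being 1.16 from 95 cells.

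**Figure D4:**
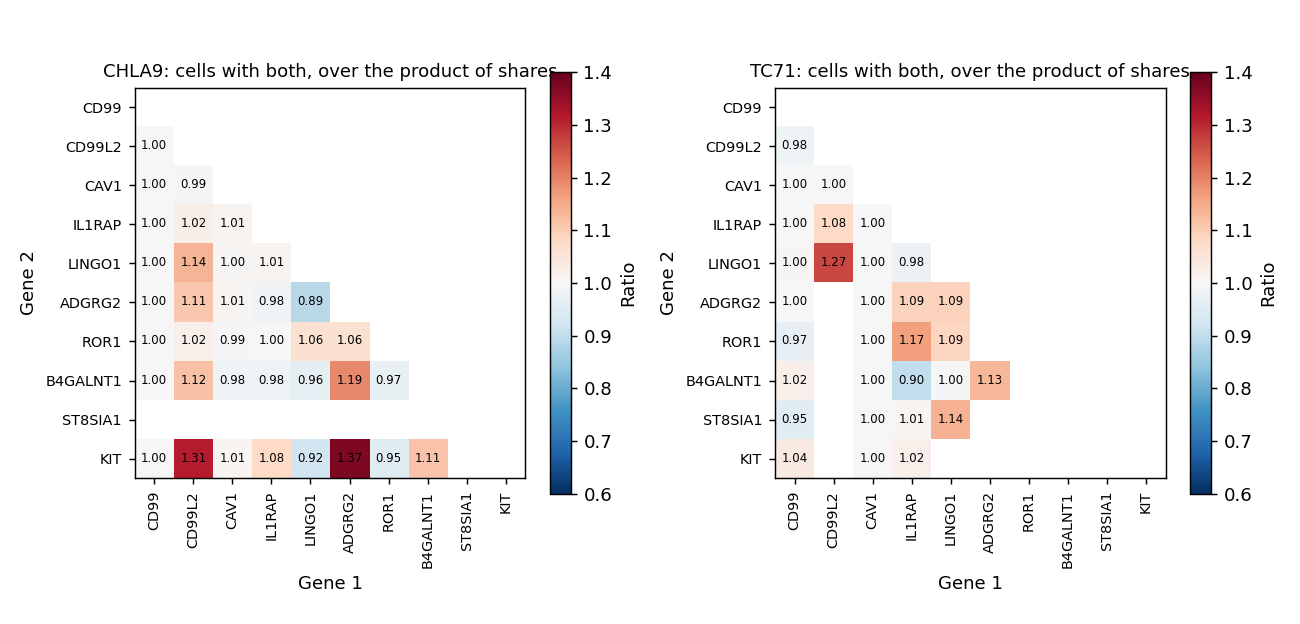
Cells with a UMI of both genes over the product of the single shares, for each pair with at least 20 cells expected, in CHLA9 (left) and TC71 (right) after thinning to 10000 UMIs. Squares without a number carry no value, those of CD99 and CAV1 are held near 1 by their shares, and the others are highest at 1.37 for ADGRG2 and KIT in CHLA9 and 1.27 for CD99L2 and LINGO1 in TC71.

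Antigen levels were next compared across phases of the cell cycle. In CHLA9, 1015 cells were placed in G1, 1743 in S and 1766 in G2M, and in TC71 226, 834 and 669. CD99 in CHLA9 was at 1238 CPM in G1 (1226 to 1250), 1224 in S and 1029 in G2M (1022 to 1037), and in TC71 at 418 in G1 (402 to 434), 404 in S and 395 in G2M (387 to 403). CAV1 stayed within 1.25-fold of its G1 level in G2M in both lines, with 593 CPM in G1 and 565 in G2M in CHLA9 and 1412 and 1355 in TC71.

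At least 100 UMIs in both G1 and G2M were counted for 9 of the 10 genes in CHLA9 and 5 in TC71, KIT not among the 5. Of these, 3 in CHLA9 and 0 in TC71 were at least 1.25-fold apart between the phases, against 22.5% of 10762 genes with as many UMIs in CHLA9 and 20.4% of 6481 in TC71, genes of the scoring included. ADGRG2 in CHLA9 was at 6.72 CPM in G1 (5.85 to 7.68), at 8.90 in S (8.20 to 9.65) and at 11.7 in G2M (10.9 to 12.5), so that each phase was above the one before, with a G2M to G1 ratio of 1.74 (1.49 to 2.02). In TC71 its ratio was 1.22 (1.00 to 1.48), with 20.0 CPM in G1, 17.8 in S and 24.3 in G2M. KIT in CHLA9 had a ratio of 1.28 (1.14 to 1.45), and LINGO1 was lower in G2M, with a ratio of 0.777 (0.729 to 0.828). In TC71 the ratio was 0.932 (0.587 to 1.53) for KIT, from too few UMIs to be counted, and 1.04 (0.907 to 1.19) for LINGO1. IL1RAP was also lower in G2M of CHLA9, at 0.806 (0.762 to 0.853), and was at 1.11 (0.987 to 1.24) in TC71. B4GALNT1 was highest in S in CHLA9, with 12.04 CPM (11.2 to 12.9) against 7.69 in G1 and 8.35 in G2M. In TC71 it was also highest in S, with 12.56 CPM (11.26 to 13.96). Its levels there were 9.08 in G1 (6.89 to 11.74) and 11.03 in G2M (9.755 to 12.42), with intervals that overlapped that of S.

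**Figure D5:**
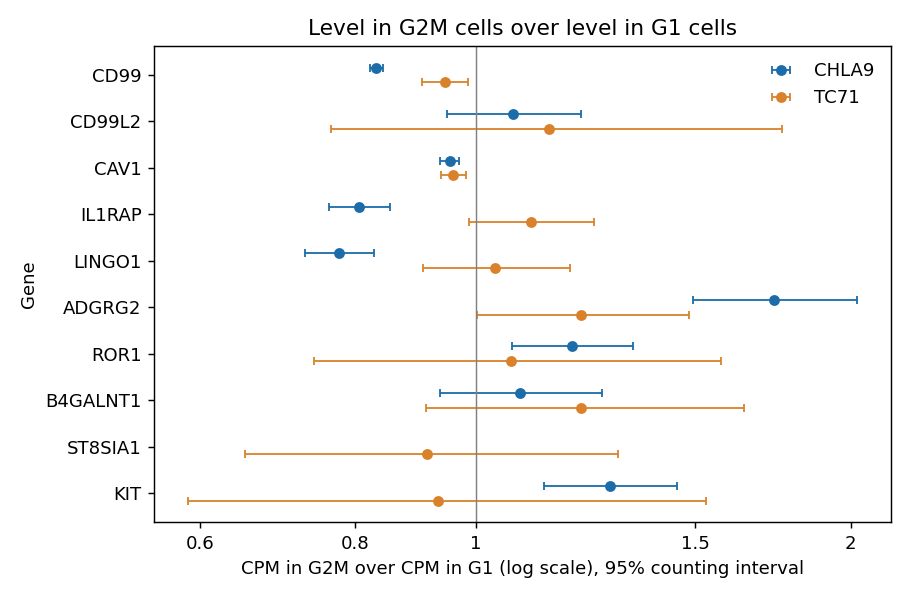
Level in G2M cells over level in G1 cells for each of the 10 genes (log axis), in CHLA9 (blue) and TC71 (orange), with 95% counting intervals. ADGRG2 has the highest ratio in CHLA9, 1.74, and LINGO1 the lowest, 0.777, and ST8SIA1 has no CHLA9 point because its 1 UMI was in a G2M cell.

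Cells in G2M were deeper than cells in G1, with medians of 40896 and 29196 UMIs in CHLA9 and 37014 and 29047.5 in TC71. Over tertiles of CHLA9 cells by total UMIs, CD99 went from 1243 CPM in the lowest tertile (1232 to 1254) to 1064 in the highest (1057 to 1071), and in TC71 from 452 (440 to 464) to 370.5 (363 to 378). ADGRG2 in CHLA9 was at 8.87 CPM in the lowest tertile and 10.8 in the highest, and KIT at 10.5 and 14.3. The part of cell size in the differences between phases was not tested.

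For the 4 genes found in at least 20% of cells of both lines, the genes most like them across thinned cells were ranked among 4980 genes by the mean of Spearman's rho over the lines. Across 4510 CHLA9 and 1670 TC71 cells, CAV1 was most like CAV2, at 0.217 in CHLA9 and 0.286 in TC71, followed by the neuropeptide gene GRP at 0.110 and 0.187 and the chaperonin gene HSPE1 at 0.0698 and 0.146. CD99 was most like B2M, the light chain of MHC class I, at 0.149 and 0.195, then TUBA1B at 0.119 and 0.184 and GRP at 0.156 and 0.130. IL1RAP was most like the claudin gene CLDN1, at 0.150 in CHLA9 and 0.0504 in TC71, then HNRNPA3 at 0.0666 and 0.0995 and HNRNPU at 0.0546 and 0.103. For LINGO1 the values were weak, at 0.0579 and 0.0504 for MYC, 0.0307 and 0.0754 for DAZAP1 and 0.0220 and 0.0829 for GABPB1-AS1. The medians over all genes compared with LINGO1 were 0.0009 in CHLA9 and 0.00105 in TC71. How high the top of 4980 unrelated genes would reach was not tested, so the weak values do not set these genes apart. Between CD99 and CAV1 the rho was 0.0784 in CHLA9 and 0.0470 in TC71. All cells of a line shared 1 library, and sparse counts lower such values.

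The antigen genes were last set beside 22 other surface targets, of which 17 passed the filter, 5 were past 2-fold higher in CHLA9 and 6 in TC71. Of all genes that passed, 18.9% were called higher in CHLA9 and 12.3% in TC71. MET and NCAM1 passed only through TC71, and CXCR4 and L1CAM only through CHLA9, which fixed their calls. CDH11, a mesenchymal cadherin, was the most abundant of them in CHLA9, with 149 CPM against 96.0 in TC71, and the metalloreductase gene STEAP1 in TC71, with 239 CPM against 73.2 in CHLA9. Both were above IL1RAP and LINGO1 and below CD99 and CAV1 in either line. Higher in CHLA9 were ERBB2 at 32.9 CPM against 5.76, GPC2 at 22.9 against 7.35 and EPHA2 at 13.7 against 5.67, with CXCR4 and L1CAM at lower levels. Higher in TC71 besides STEAP1 were STEAP2 at 76.8 CPM against 18.9, CD47 at 41.8 against 16.5 and ALCAM at 18.3 against 8.66, with MET at 2.88 against 0.0114. NCAM1 had 125 UMIs in TC71 and 0 in CHLA9, which is at least 125-fold higher against 3 counts in the CHLA9 library. EGFR was at 0 in both lines.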

How the data were processed

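Raw counts of UMIs for each gene and barcode, not normalized, were deposited by the authors, who used Cell Ranger 3.1.0 (hg38). The members and gene lists were chosen with earlier results of these data known. Kept cells were summed per line. Genes with a mean of at least 1 CPM over the lines were compared, and at least 2-fold apart counted as called. Cells were thinned without replacement with numpy 2.4.6 (seed 1), and intervals came from scipy 1.17.1. Phases were scored per line with Seurat 5.3.0 in R 4.3.3 on genes detected in at least 10 cells. Scrublet in scanpy 1.11.5 called 394 CHLA9 and 12 TC71 cells, which were kept. Named were the 10 members, CD99P1, the most abundant gene of each list per line, list genes past 2-fold with at least 10 CPM in a line, and the 3 genes most like each widely detected member. The results of 1 list are not reported here. Other genes were named after their values were seen. Coordinates are from GENCODE 44, matched by gene identifier, and upstream windows from RefSeq (GRCh38.p14). Fold calls, the Poisson intervals of levels and pair ratios were tested on simulated data, and the other intervals were not.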

Additional observations from a re-analysis of the deposited data

Results flagged for a closer look

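CAV2 and STEAP1, chosen after their values were seen, had G2M to G1 ratios on opposite sides of 1 in the lines, beyond counting error. CAV2 was at 1.11 in CHLA9 and 0.947 in TC71, and STEAP1 at 0.934 in CHLA9 and 1.10 in TC71. With another seed of the scoring the interval of CAV2 in TC71 held 1, at 0.953 (0.904 to 1.005). The differences between the lines were not tested.

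Barcodes below 5000 UMIs, which enter none of the comparisons, held over 3 UMIs of 9 of the 10 antigen genes in CHLA9 and of all 10 in TC71. The 277 such barcodes of CHLA9 held 721024 UMIs, with CD99 at 229 CPM and CAV1 at 110, against 1141 and 558 in the kept cells. The 5869 of TC71 held 8878180 UMIs, with CD99 at 329 CPM, CAV1 at 1128 and ST8SIA1 at 3.72, against 401.5, 1443 and 5.74 in the kept cells. The order of CD99 and CAV1 was that of the kept cells in each line.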

How the results depend on the processing

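No paired analysis was possible because there was only 1 library of each line. Of the 10 antigen genes, 7 were past 2-fold under every alternative to the cells kept, the scaling and the summing, and without a filter on low genes. With a minimum of 10 CPM, 7 were compared and 4 were past 2-fold, since fewer genes were compared. Among all genes, 1867 of 8565 (21.8%) were then called, in place of 4035 of 12932 (31.2%). Without a filter 12270 of 23998 genes (51.1%) were called. Under median-of-ratios scaling 47.1% of all calls were higher in CHLA9, in place of 60.5%.

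Shares depended on depth by construction. Without thinning, 9 genes in place of 4 were found in at least 20% of CHLA9 cells and 6 of TC71, and at 5000 UMIs 3 of each line. At least 4 antigen genes were found in 85.5% of CHLA9 and 84.8% of TC71 cells without thinning, in 11.1% and 13.1% at 5000 UMIs, and in 33.1% of TC71 cells with at most 10% mitochondrial UMIs. The cause of the last was not tested.

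The ratio of B4GALNT1 and ST8SIA1 in TC71 was 1.94 at 5000 UMIs, from 5 cells, and that of CD99L2 and KIT in CHLA9 fell below 1, to 0.963, from 14. Pairs with an interval without 1 numbered 1 in CHLA9 at 10% mitochondrial UMIs, 0 at 5000 UMIs, 0 with another draw and 12 without thinning, in place of 2, and 3 in TC71 without thinning, in place of 0. They were the same number with pairs of CD99 or CAV1 left out, a choice made after seeing the data. In TC71, 1 gene, ADGRG2, was at least 1.25-fold apart between phases with the top 8% of Scrublet scores left out (1.253) and 1 with all genes kept for scoring, ADGRG2 again (1.287), in place of 0 with ADGRG2 at 1.215; the cause was not tested. At 10% mitochondrial UMIs it was at 1.35 with too few UMIs to be counted. In CHLA9 IL1RAP made the count 4 in place of 3 with outliers by median absolute deviations left out (0.7985), with the top Scrublet scores left out (0.7922) and with another seed of the scoring (0.7997), from 0.806. Genes below about 10 CPM were limited by depth, and differences between lines by 1 library each.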
